A study of Mus musculus with 24 samples.

Results

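The 46 genes described here encode parts of autophagy and the lysosome in the mouse. They were taken from a given list of gene symbols. The rule for the list uses no measured value, but the list was chosen with earlier results of these data known. All 46 were found among the 43629 gene identifiers of the count table. By role they comprise 6 cargo receptors, 5 members of the LC3 and GABARAP family and 4 subunits of the ULK kinase complex. A further 5 genes were placed with nucleation, 4 with membrane supply and 9 with the conjugation machinery. The others encode 3 transcription factors, 3 lysosomal membrane proteins, 4 lysosomal hydrolases and 3 subunits of the proton pump. All 46 passed the filter on low counts in both cell lines.

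Autophagy wraps cytoplasm in a double membrane and delivers it to the lysosome. The ULK kinase complex starts the process, the Beclin 1 lipid kinase complex marks the growing membrane, and ubiquitin-like conjugation attaches LC3 and GABARAP proteins to it, where cargo receptors bind. The MiT/TFE transcription factors (TFEB, TFE3 and MITF) bind the sequence CACGTG in the promoters of many lysosomal genes.

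E0771, a mouse mammary adenocarcinoma line, and MC38, a mouse colon adenocarcinoma line, were treated in culture for 3 h with the vehicle DMSO, with 2.5 µM RG6146, with 10 ng/mL recombinant murine TNF, or with both. RG6146 is a clinical inhibitor of BET bromodomains, and TNF is an inflammatory cytokine. Each of the 8 groups has 3 libraries, 24 in all, of the QuantSeq type, in which a read falls near the 3′ end of its transcript. The sample labels, which give the lines as E0771 and MC38, were followed although the growth protocol speaks of MC38-Ova. Nothing in the labels says whether the 3 replicates of a group were separate cultures, so every p-value measures the spread between these libraries, which may be technical. Levels in bulk RNA cannot tell fewer cells of a kind from less RNA per cell.

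Total counts ran from 5392406 to 9132814 in E0771 and from 5392808 to 9673118 in MC38, and the 46 genes held 0.432% to 0.516% and 0.465% to 0.533% of them. Of all genes called with RG6146, 36.6% were higher in E0771 and 40.7% in MC38 (26.5% and 27.8% with library totals as the only scaling), and of those called with TNF in E0771, 81.1% were higher (67.4%). The summed level of 14 epithelial markers was 90.8 to 120 normalised CPM (counts scaled to a common library size) in E0771, nearly all of it Krt8, and 3.12 to 10.9 CPM in MC38, with 3 and 6 of the markers at 0 in every library. Epcam, which defines most carcinoma cells, reached no more than 0.306 CPM in E0771 and 0.263 CPM in MC38. Each of 4 groups holds 1 library that stands apart by a trait given next. The share of mitochondrial ribosomal RNA was 1.69% to 3.23% in 22 libraries but 0.376% in replicate 2 of E0771 with TNF and 0.609% in replicate 2 of MC38 with DMSO. MC38 TNF replicate 1 lay farther from its group than any other MC38 library. E0771 TNF replicate 3 was not counted among the 4. Its root mean square distance from its group's other libraries, which include replicate 2, was 0.473 on the log2 scale. Those of MC38 DMSO replicate 2 and MC38 combination replicate 2 were 0.467 and 0.466. Ctsl was at 562 CPM in E0771 TNF replicate 3, against 880 and 887 CPM in replicates 1 and 2. MC38 combination replicate 2 held 24 leukocyte markers at a summed 1979 CPM, mainly S100a8 and S100a9, where every other MC38 library had 5.94 to 34.2 CPM. Counts of called genes are therefore given with all libraries and without the 4 that stand apart. E0771 TNF replicate 3 stays in those fits. For the other alternative fits the share of all genes called is not given here, so their counts of members cannot be set against it.

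The first comparison asks what BET inhibition alone did to these genes. In E0771, RG6146 raised Ulk1, Atg12, Atg101 and Map1lc3b and lowered Mitf, Smcr8 and Gabarapl1. In MC38, Atg12 and Map1lc3b rose and no member fell. A gene was called where edgeR's quasi-likelihood test gave a Benjamini-Hochberg adjusted p under 0.05 over all genes tested. The 7 of 46 called in E0771 stand beside 10.8% of all genes tested there (3.96% higher and 6.86% lower), and the 2 of 46 in MC38 beside 8.27% (3.37% higher and 4.91% lower). The median log2 fold change of the 46 genes was 0.10 in E0771 and 0.16 in MC38, against 0.004 and -0.01 over all genes tested, and 30 and 36 of the 46 lay above 0. With library totals alone, 26 and 29 lay above 0. The plot of RG6146 effects by role shows every member.

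**Figure D1:**
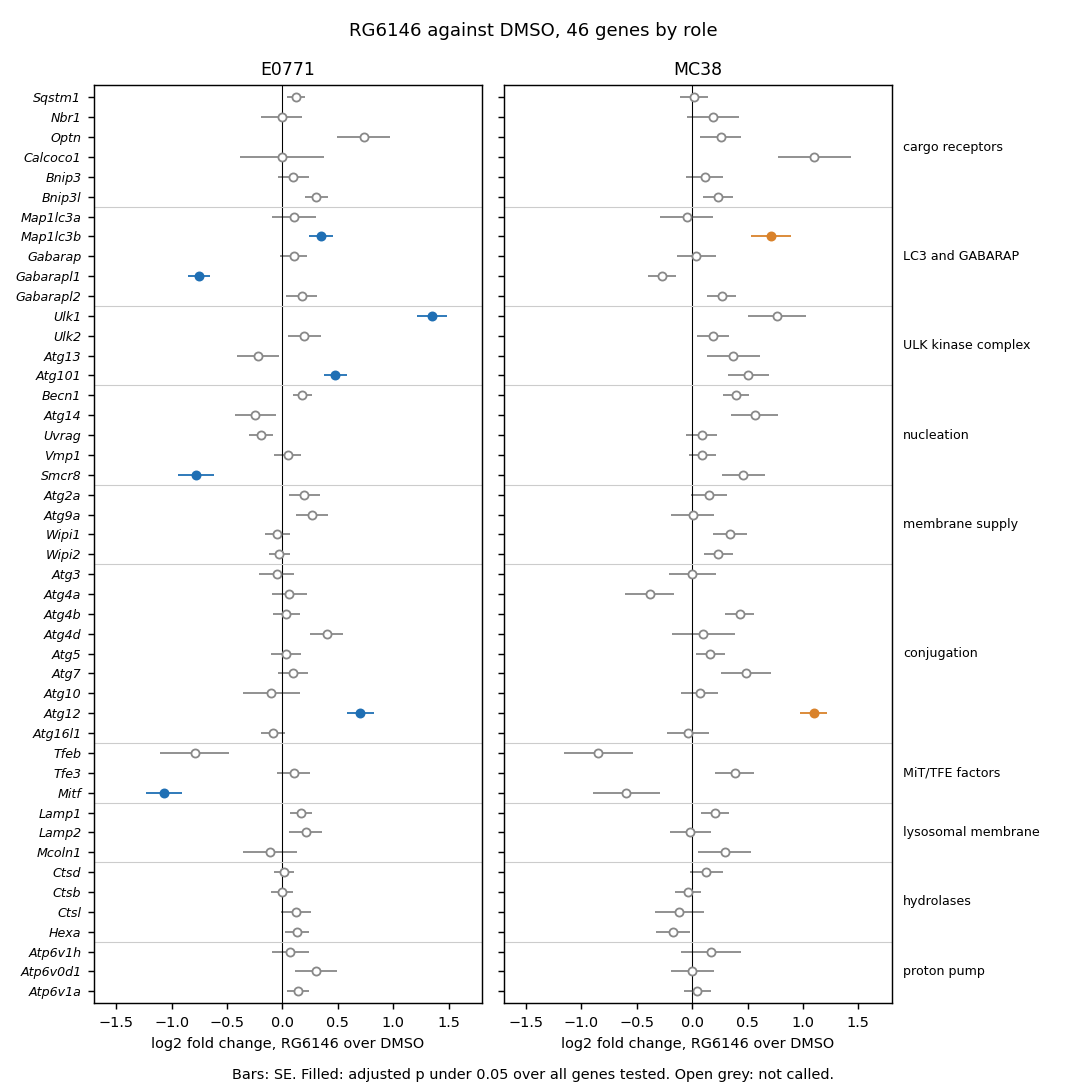
Log2 fold change of RG6146 over DMSO (x axis) with its standard error for the 46 genes, ordered by role, in E0771 (left) and MC38 (right), 3 libraries a group. Filled points mark the 7 genes called in E0771 and the 2 called in MC38; open points were not called. Most points lie within 0.5 of 0, and Ulk1 in E0771 and Atg12 in MC38 are the highest filled points.

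The ULK complex held the member with the smallest p in E0771. Ulk1, the kinase that starts autophagosome formation (chromosome 5, 110784488 to 110810097, minus strand, mm10), was at 22, 28.2 and 29.1 CPM in the DMSO replicates and 61.9, 75.1 and 64.9 CPM with RG6146. All 3 treated libraries lay above all 3 controls, a 2.54-fold rise (log2 fold change 1.35 ± 0.14, SE; adjusted p = 2.95e-05). Atg101, which stabilises the complex (chromosome 15, 101284272 to 101290945, plus strand), rose from 59, 61.1 and 53.7 CPM to 77.9, 88 and 76.3 CPM (log2 fold change 0.48 ± 0.10, SE; adjusted p = 0.00788). The groups did not overlap, but the call was lost without RG6146 replicate 2 (adjusted p = 0.051). The other 2 subunits were not called: the second kinase Ulk2 had a log2 fold change of 0.20 ± 0.15 (SE) and the scaffold Atg13 of -0.22 ± 0.19 (SE).

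The promoter stretches of Ulk1 and of Gabarapl1, which fell, are shown because they are the called members with the smallest p that have a sequence to print. That of Lamp1, which was not called, is shown for contrast and was chosen after its values were seen. Its window holds more CACGTG than that of any other member. Other members not called with RG6146 alone, such as Sqstm1, Lamp2 and Hexa, have windows without it. Each is the 250 bases before the RefSeq transcription start, read 5′ to 3′ along the gene's strand in GRCm38.p6, with CACGTG in capitals. They lie at chr5:110810082-110810331 (Ulk1, minus strand), chr6:129532942-129533191 (Gabarapl1, plus strand) and chr8:13158911-13159160 (Lamp1, plus strand), and the GENCODE models of Ulk1 and Gabarapl1 begin inside the stretch.
Ulk1: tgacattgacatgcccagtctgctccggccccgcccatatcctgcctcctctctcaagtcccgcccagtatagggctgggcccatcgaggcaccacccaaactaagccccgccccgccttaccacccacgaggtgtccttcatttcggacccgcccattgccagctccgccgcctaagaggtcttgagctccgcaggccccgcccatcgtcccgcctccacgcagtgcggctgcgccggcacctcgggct
Gabarapl1: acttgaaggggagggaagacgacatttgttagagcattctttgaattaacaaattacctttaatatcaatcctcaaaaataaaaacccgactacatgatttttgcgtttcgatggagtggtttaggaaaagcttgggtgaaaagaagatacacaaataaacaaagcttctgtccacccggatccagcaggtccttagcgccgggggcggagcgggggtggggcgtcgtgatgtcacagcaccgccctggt
Lamp1: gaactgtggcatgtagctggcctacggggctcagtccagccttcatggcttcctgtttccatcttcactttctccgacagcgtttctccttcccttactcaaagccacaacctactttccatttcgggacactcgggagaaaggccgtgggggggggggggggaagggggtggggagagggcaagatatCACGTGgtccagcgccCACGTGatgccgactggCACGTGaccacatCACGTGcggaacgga
CACGTG, a palindrome that reads the same on both strands, was absent from the Ulk1 and Gabarapl1 stretches and stood 4 times in that of Lamp1, beginning 61, 45, 28 and 15 bases before the start.

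RefSeq promoter windows, from 250 bases before to 50 bases after a start, were found for 38 of the 46 members. At least 1 CACGTG stood in the windows of 11 of these 38 genes (28.9%), against 8.09% of all 27025 genes with a window. The 11 are Atg3, Atg5, Atg7, Atg14, Bnip3, Lamp1, Mcoln1, Ctsd, Ctsl, Atp6v0d1 and Atp6v1a. RG6146 against DMSO called 0 of the 11 in E0771, beside 10.8% of all genes, and 0 in MC38, beside 8.27%, by edgeR's test. An unadjusted p under 0.05 was given to 0 and 2 of them, beside 3051 of 12541 and 2949 of 13272 genes tested. DESeq2 called 0 of the 11 in both lines. Atp6v0d1 was called in E0771 without TNF replicate 2 and in a fit of only the 6 libraries compared, and Atg14 in MC38 without DMSO replicate 3. Atg7 was called lower in E0771 in the combination against TNF. Of the 7 members called in either line, 5 have a window and 0 of these hold the 6 letters, which says only that the letters are not in these windows.

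In the conjugation machinery, Atg12 was the only one of 9 genes called in E0771. Atg12, the ubiquitin-like protein joined to Atg5, was at 40.7, 44.8 and 36.5 CPM in DMSO and 73.5, 56.6 and 68.7 CPM with RG6146. The groups did not overlap, and the rise was 1.63-fold (log2 fold change 0.70 ± 0.12, SE; adjusted p = 0.0018). Its partners Atg5 (40.6 ± 6.71 CPM in DMSO and 41.4 ± 2.07 CPM with RG6146, SD, n = 3) and Atg16l1 (39.9 ± 3.79 and 37.6 ± 1.92 CPM, SD, n = 3) were not called. The activating enzyme Atg7, the conjugating enzymes Atg3 and Atg10 and the proteases Atg4a, Atg4b and Atg4d were not called either, with log2 fold changes from -0.10 (Atg10) to 0.40 (Atg4d).

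The LC3 and GABARAP family moved in both directions in E0771. Gabarapl1, which binds cargo receptors on the autophagosome (chromosome 6, 129533160 to 129542346, plus strand), was at 132, 131 and 136 CPM in DMSO and 70.6, 80.5 and 86.3 CPM with RG6146. Every treated library lay below every control, a log2 fold change of -0.75 ± 0.10 (SE; adjusted p = 0.000275). Map1lc3b, the most widely used autophagosome marker (chromosome 8, 121590361 to 121598760, plus strand), was at 102, 93.2 and 98.4 CPM in DMSO and 131, 118 and 124 CPM with RG6146. These groups did not overlap (log2 fold change 0.35 ± 0.11, SE; adjusted p = 0.0481), but leaving out any 1 of the 9 DMSO, RG6146 and combination libraries ended the call, with adjusted p up to 0.179. Map1lc3a, Gabarap and Gabarapl2 had log2 fold changes of 0.10, 0.10 and 0.17 and were not called. An exon of another gene overlaps Gabarapl1 and Map1lc3b on the opposite strand, and since the strand setting of the counting is not given in the sources used here, reads of such pairs cannot be told apart.

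Of the MiT/TFE factors, Mitf fell in E0771. Mitf (chromosome 6, 97807052 to 98021349, plus strand) was at 28.3, 26.7 and 23.8 CPM in DMSO and 11.2, 14.9 and 11.4 CPM with RG6146, without overlap (log2 fold change -1.07 ± 0.16, SE; adjusted p = 0.000763). Tfeb, the factor best known for driving lysosomal genes, was at 5.81, 6.84 and 4.13 CPM and 3.86, 2.8 and 3.07 CPM. Its groups did not overlap either, at 15 to 50 counts a library (log2 fold change -0.79 ± 0.31, SE; adjusted p = 0.128), and it was called without E0771 TNF replicate 2 (adjusted p = 0.0453). Tfe3 was not called, at 37.9 ± 6.82 CPM in DMSO and 40.6 ± 3.7 CPM with RG6146 (SD, n = 3).

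Among the genes placed with nucleation, Smcr8 (chromosome 11, 60777524 to 60788287, plus strand), which works in a complex with C9orf72, fell in E0771. Smcr8 went from 21.6, 15.7 and 17.1 CPM to 9.74, 12 and 9.94 CPM (log2 fold change -0.78 ± 0.17, SE, adjusted p = 0.00688). The groups did not overlap, and exons of Shmt1 overlap Smcr8 on the opposite strand. Becn1, which encodes Beclin 1, was at 99.4, 109 and 106 CPM and 124, 123 and 109 CPM, without overlap, and was not called (adjusted p = 0.222). Its alternative partners Atg14 and Uvrag had log2 fold changes of -0.24 and -0.19, and Vmp1, an endoplasmic reticulum protein needed for autophagosomes to form, of 0.05. The membrane supply genes Atg2a, Atg9a, Wipi1 and Wipi2, which transfer lipid or bind the marked membrane, ran from -0.05 to 0.27 and none was called.

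The cargo receptors and the lysosomal genes gave no call in E0771. Sqstm1, or p62, which links ubiquitinated cargo to LC3, was at 347, 292 and 326 CPM in DMSO and 341, 354 and 353 CPM with RG6146, and the groups overlapped. Bnip3 and Bnip3l are receptors for mitochondria: Bnip3 had a log2 fold change of 0.10 ± 0.14 (SE) and Bnip3l of 0.30 ± 0.10 (SE; adjusted p = 0.0775). Optn, Nbr1 and Calcoco1 were at 0.73, -0.01 and -0.00. Lamp1, the main protein of the lysosomal membrane, was at 675, 682 and 699.9 CPM in DMSO and 739, 811 and 757 CPM with RG6146 (log2 fold change 0.17 ± 0.10, SE; adjusted p = 0.337), the treated libraries above the controls but not called. Ctsd, the aspartic protease cathepsin D, was at 441, 391 and 422 CPM and 413, 444 and 412 CPM, and the groups overlapped (log2 fold change 0.02 ± 0.09, SE). Lamp2, the calcium channel gene Mcoln1, the hydrolases Ctsb, Ctsl and Hexa and the proton pump subunits Atp6v1h, Atp6v0d1 and Atp6v1a ran from -0.11 to 0.30. Without the 4 libraries that stand apart, 11 members were called in E0771, beside 18.3% of all genes. Of these 4 only TNF replicate 2 is an E0771 library, so this is the same fit as leaving out TNF replicate 2 alone. The added genes were Atp6v0d1, Bnip3l and Optn, higher, and Tfeb, lower.

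MC38 gave fewer calls. Its libraries also lay farther from their groups, with a median root mean square distance of 0.352 against 0.238 in E0771. In edgeR's test 13 members had an unadjusted p under 0.05 in MC38 and 11 in E0771, beside 2949 of 13272 and 3051 of 12541 genes tested. The part of this spread in the counts of calls was not tested. Atg12 was at 48.3, 51.7 and 48.3 CPM in DMSO and 114, 100.1 and 103 CPM with RG6146, a 2.14-fold rise (log2 fold change 1.09 ± 0.12, SE; adjusted p = 0.000126). The groups lay far apart, and the call held whichever library was left out. Map1lc3b was at 64, 80.9 and 85.3 CPM in DMSO and 109, 126 and 142 CPM with RG6146 (log2 fold change 0.71 ± 0.18, SE; adjusted p = 0.0274). These groups did not overlap, and the call was lost without DMSO replicate 1, DMSO replicate 2, RG6146 replicate 2 or RG6146 replicate 3, with adjusted p from 0.0556 to 0.115.

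Several MC38 members lay just outside the threshold. Ulk1 was at 42.2, 46.6 and 21.9 CPM in DMSO and 52.9, 62 and 73.4 CPM with RG6146; the groups did not overlap and DMSO replicate 3 was the lowest (log2 fold change 0.76 ± 0.26, SE; adjusted p = 0.0942). Becn1 was at 177, 189.6 and 156 CPM and 211, 217 and 260.4 CPM (log2 fold change 0.40 ± 0.12, SE; adjusted p = 0.0542). Calcoco1, a receptor for the endoplasmic reticulum, had a log2 fold change of 1.10 ± 0.33 (SE; adjusted p = 0.0546) at 7 to 24 counts a library. Becn1 was called without DMSO replicate 2 (adjusted p = 0.0493) or without TNF replicate 1 (adjusted p = 0.0375), and DESeq2 called 5 members, adding Ulk1, Becn1 and Atg4b. Without the 4 libraries that stand apart, 6 members were called, all higher, beside 9.31% of all genes: Atg12, Map1lc3b, Ulk1, Atg101, Atg4b and Becn1. Leaving out single libraries gave 1 call (without DMSO replicate 1, RG6146 replicate 2 or RG6146 replicate 3) to 5 (without TNF replicate 1).

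The other MC38 genes were not called with RG6146. Gabarapl1 was at 119, 135 and 136 CPM in DMSO and 95.9, 104 and 123 CPM with RG6146, and the groups overlapped (log2 fold change -0.27 ± 0.13, SE). Tfeb had a log2 fold change of -0.85 ± 0.31 (SE; adjusted p = 0.118) and Mitf of -0.60 ± 0.30 (SE; adjusted p = 0.267), both at low counts. Sqstm1, Bnip3, Lamp1 and Ctsd had log2 fold changes of 0.02, 0.11, 0.20 and 0.13. With library totals alone Sqstm1 was at -0.06.

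A fit over all 24 libraries tested how the lines differ and called 1 of 46 members for RG6146 against DMSO, beside 0.384% of all genes. Smcr8 fell in E0771 and was at 11, 12.6 and 13.7 CPM in DMSO and 19.4, 17 and 15.2 CPM with RG6146 in MC38, where it was not called (log2 fold change 0.46 ± 0.19, SE; adjusted p = 0.169). The difference, E0771 minus MC38, was -1.28 ± 0.25 on the log2 scale (SE; adjusted p = 0.0181). It was lost without E0771 DMSO replicate 1, E0771 RG6146 replicate 1 or 3, or MC38 DMSO replicate 1 (adjusted p from 0.0617 to 0.0806). For Gabarapl1 the difference was -0.52 ± 0.16 (SE; adjusted p = 0.213) and for Atg12 -0.43 ± 0.17 (SE; adjusted p = 0.328), neither of them called. Across the 46 genes the log2 fold changes of the lines, which share no library, correlated with a Pearson r of 0.514, against 0.495 over the 11786 genes tested in both, a description across genes that share each line's libraries.

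**Figure D2:**
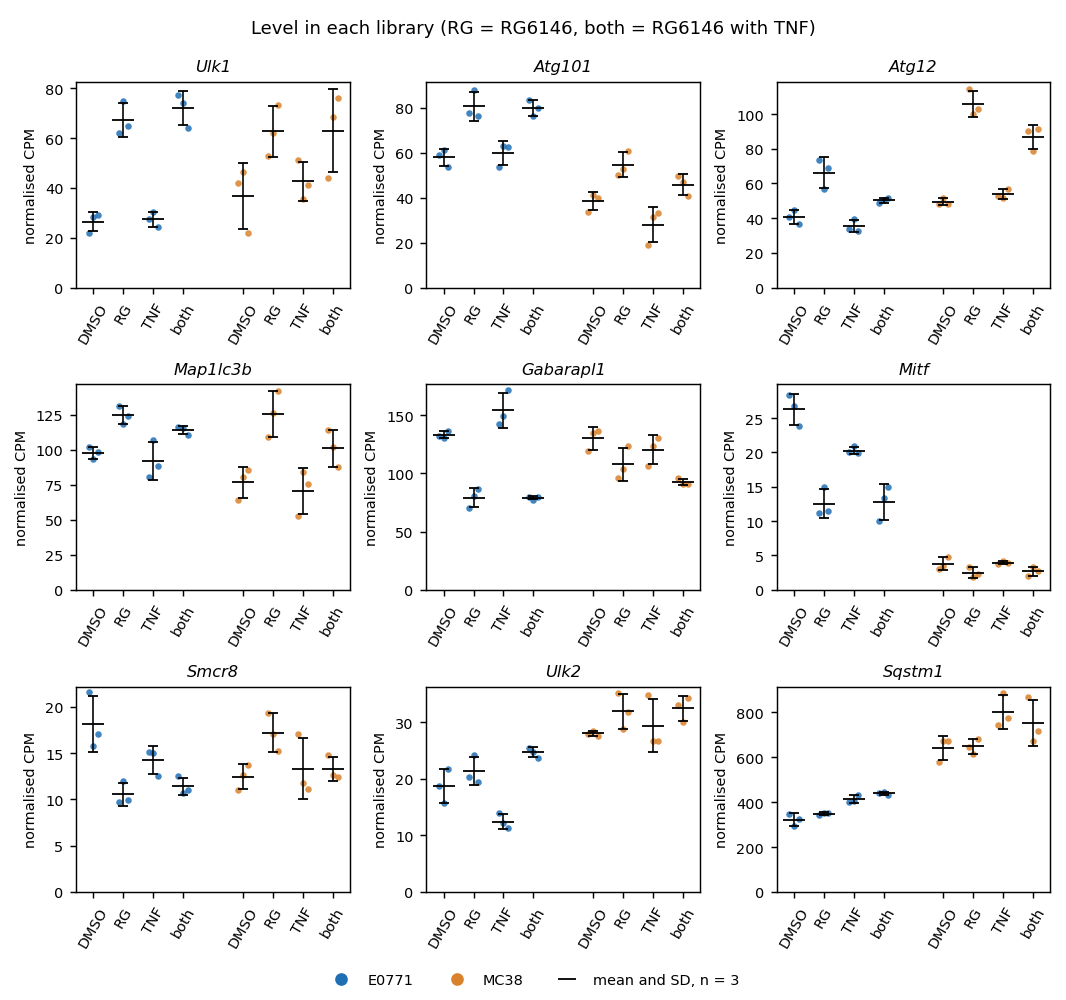
Normalised CPM (y axis) of 9 members in each library, by treatment, in E0771 (blue) and MC38 (orange), with the mean and SD of 3 libraries. In E0771, Ulk1 and Atg12 sit higher and Gabarapl1 and Mitf lower in the groups that hold RG6146 than in those that do not; Sqstm1 is higher in MC38 throughout.

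TNF alone was compared with DMSO. In E0771 it raised 1 member, Sqstm1, and in MC38 it called none. The 1 of 46 in E0771 stands beside 2.32% of all genes tested (1.88% higher and 0.439% lower), and the 0 of 46 in MC38 beside 1.09%. In MC38, edgeR's test gave 5 members an unadjusted p under 0.05, beside 1658 of all 13272 genes tested, and DESeq2 called 0 members. The median log2 fold change of the members was 0.04 in E0771 and -0.02 in MC38, against -0.02 and 0.02 over all genes, and 27 and 22 of the 46 lay above 0; with library totals alone the E0771 median was -0.03, with 20 above 0.

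Sqstm1 was at 401, 403 and 433 CPM with TNF in E0771, all above the DMSO libraries given above (log2 fold change 0.36 ± 0.08, SE; adjusted p = 0.03). Leaving out DMSO replicate 2 or 3, or any 1 of the RG6146 and combination libraries, ended the call, with adjusted p up to 0.183, and library totals alone ended it too (adjusted p = 0.0999). In MC38, Sqstm1 was at 581, 671 and 670.4 CPM in DMSO and 744, 885 and 776 CPM with TNF. The groups did not overlap, with a log2 fold change of 0.32 ± 0.12 (SE, adjusted p = 0.297). An exon of Mrnip overlaps Sqstm1 on the opposite strand.

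The E0771 members nearest the threshold with TNF were Ulk2, from 18.7, 15.7 and 21.7 CPM to 13.9, 12.2 and 11.3 CPM (log2 fold change -0.58 ± 0.15, SE; adjusted p = 0.0699), and Wipi1, which binds the lipid mark on the growing membrane (log2 fold change -0.42 ± 0.12, SE; adjusted p = 0.0904). Neither pair of groups overlapped, and with library totals alone both were called lower and Sqstm1 was not. Without TNF replicate 1, 5 members were called: Sqstm1, Hexa and Lamp1 higher and Ulk2 and Wipi1 lower. In MC38 the smallest adjusted p was that of Atp6v0d1, a subunit of the proton pump (0.266). The difference between the lines called 0 members beside 0.206% of all genes. In edgeR's test 12 members had an unadjusted p under 0.05, beside 1947 of all 14058 genes tested, and DESeq2 called 1 member, Hexa. Without E0771 TNF replicate 1 the count was 2 (Hexa and Lamp1) and without MC38 TNF replicate 3 it was 1 (Hexa). For Hexa, which breaks down gangliosides, the difference was 0.73 ± 0.19 (SE; adjusted p = 0.109).

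The combination was compared with TNF, which asks what BET inhibition did in cells that also received TNF. In E0771 the inhibitor raised Ulk1, Ulk2, Atg12, Atg2a and Atg101 and lowered Gabarapl1, Mitf, Atg7 and Atg16l1. In MC38 it raised Atg101 and Atg12. The 9 of 46 in E0771 stand beside 16.6% of all genes tested (7.12% higher and 9.46% lower) and the 2 of 46 in MC38 beside 11.3% (3.7% higher and 7.6% lower). The median of the members was 0.14 in E0771 and 0.15 in MC38, against 0.001 and -0.04 over all genes, with 28 and 31 of the 46 above 0.

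**Figure D3:**
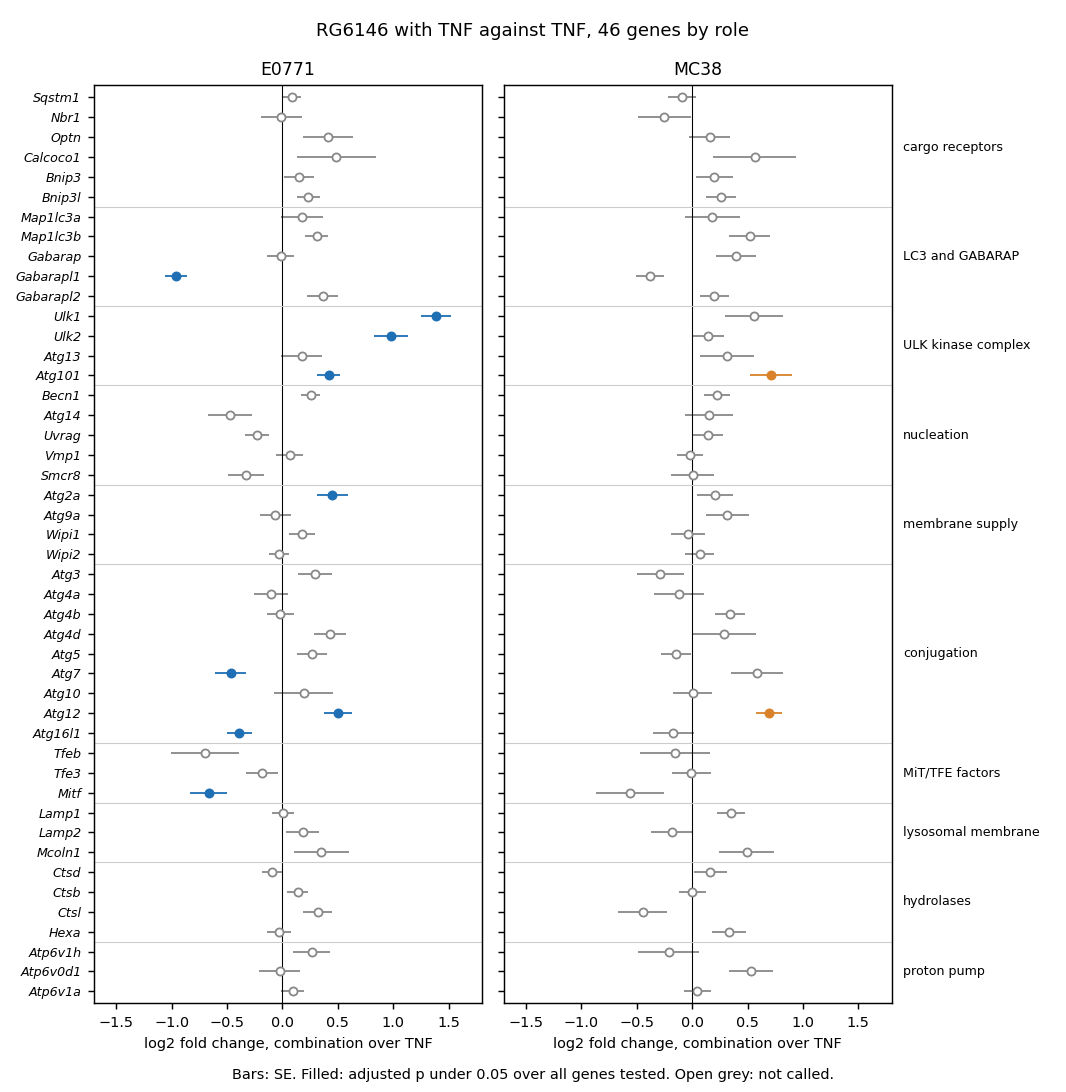
Log2 fold change of RG6146 with TNF over TNF alone (x axis) with its standard error for the 46 genes, ordered by role, in E0771 (left) and MC38 (right), 3 libraries a group. Filled points mark the 9 genes called in E0771 and the 2 in MC38; 3 of the 4 ULK complex genes are filled in E0771.

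The ULK complex had 3 of its 4 members called in E0771. Ulk1 was at 27.7, 30.2 and 24.4 CPM with TNF and 77.3, 74.2 and 64.3 CPM with both agents, a 2.61-fold rise (log2 fold change 1.38 ± 0.13, SE; adjusted p = 1.23e-05). Ulk2 was at 13.9, 12.2 and 11.3 CPM and 25.5, 24.7 and 23.8 CPM (log2 fold change 0.98 ± 0.15, SE; adjusted p = 0.000516). Atg101 was at 53.6, 63.2 and 62.4 CPM and 83.5, 76.3 and 79.9 CPM (log2 fold change 0.42 ± 0.10, SE; adjusted p = 0.0121). None of the 3 pairs of groups overlapped. The E0771 DMSO libraries had Ulk2 between these groups, at 15.7 to 21.7 CPM. The Atg101 call was lost without combination replicate 1 (adjusted p = 0.06), while Ulk1 and Ulk2 stayed called whichever library was left out.

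Conjugation genes moved both ways in E0771 cells given TNF. Atg12 was at 33.9, 39.4 and 32.8 CPM with TNF and 48.5, 50.6 and 51.7 CPM with both agents (log2 fold change 0.50 ± 0.12, SE; adjusted p = 0.0124). Atg7, the enzyme that activates both ubiquitin-like systems, was at 12.8, 13.8 and 12.9 CPM and 9.4, 9.19 and 10.1 CPM (log2 fold change -0.47 ± 0.14, SE; adjusted p = 0.0326). Atg16l1, which places the conjugate on the membrane, was at 47.2, 50.01 and 45.3 CPM and 33.2, 39.7 and 35.9 CPM (log2 fold change -0.39 ± 0.11, SE; adjusted p = 0.0269). The treated groups lay wholly above TNF for Atg12 and wholly below it for the other two. Atg12 was no longer called without combination replicate 3 (adjusted p = 0.0504), Atg16l1 without combination replicate 1 or 3 (up to 0.116), and Atg7 without TNF replicate 2 or any combination replicate (up to 0.113) or with DESeq2 (adjusted p = 0.123).

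Gabarapl1 was at 142, 149 and 171 CPM with TNF and 79.8, 77.4 and 79.5 CPM with both agents in E0771 (log2 fold change -0.96 ± 0.10, SE; adjusted p = 2.03e-05). Mitf was at 20.04, 20.9 and 19.8 CPM and 9.98, 13.3 and 15 CPM (log2 fold change -0.67 ± 0.17, SE; adjusted p = 0.0128), and was not called without combination replicate 1 (adjusted p = 0.0668). Atg2a, a lipid transfer protein of the growing membrane, was at 29.2, 37.2 and 35.1 CPM and 44.1, 47.2 and 47.5 CPM (log2 fold change 0.45 ± 0.14, SE; adjusted p = 0.0354). The groups of these 3 genes did not overlap. The Atg2a call was lost without DMSO replicate 3, TNF replicate 1 or any 1 of the RG6146 and combination libraries, with adjusted p up to 0.115. Map1lc3b, at 80.4, 107 and 88.5 CPM with TNF and 116, 116 and 111 CPM with both agents, was not called (adjusted p = 0.0608). Without the 4 libraries that stand apart, 15 members were called, 12 higher and 3 lower, beside 22.7% of all genes. For E0771 this is the same fit as leaving out TNF replicate 2 alone. Atg7 was lost there, and Atg4d, Atp6v0d1, Becn1, Bnip3l, Ctsl, Gabarapl2 and Map1lc3b were gained, all higher. Without combination replicate 1 the count was 4 and without combination replicate 3 it was 5.

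In MC38, Atg12 was at 52.8, 51.8 and 56.9 CPM with TNF and 90.2, 78.8 and 91.6 CPM with both agents (log2 fold change 0.69 ± 0.12, SE; adjusted p = 0.0025), and remained called whichever library was left out. Atg101 was at 19, 31.6 and 33.4 CPM and 49.9, 46.9 and 40.6 CPM (log2 fold change 0.71 ± 0.19, SE; adjusted p = 0.028). TNF replicate 1 was the lowest, and the Atg101 call was lost without it (log2 fold change 0.50, adjusted p = 0.0594), without combination replicate 1 (adjusted p = 0.102) and without combination replicate 2, the library with leukocyte transcripts (adjusted p = 0.0833). The count was 1 without either of these 2 combination libraries. Without the 4 libraries that stand apart the 2 called were Atg12 and Bnip3l, beside 7.24% of all genes. Ulk1 had a log2 fold change of 0.56 ± 0.26 (SE; adjusted p = 0.186), Map1lc3b of 0.52 ± 0.18 (SE; adjusted p = 0.0834), Gabarapl1 of -0.38 ± 0.13 (SE; adjusted p = 0.0752) and Lamp1 of 0.35 ± 0.12 (SE; adjusted p = 0.0875).

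Whether the effect of RG6146 differed with and without TNF was tested as an interaction, combination minus RG6146 less TNF minus DMSO. It called 0 members in E0771, beside 0.0478% of all genes, and 0 in MC38, beside 0%. In edgeR's test 2 members in each line had an unadjusted p under 0.05, Ulk2 and Atg7 in E0771 and Atg12 and Hexa in MC38. Over all genes tested, 427 of 12541 in E0771 and 772 of 13272 in MC38 did. DESeq2 called 0 members in both lines. For Ulk2 in E0771 the interaction was 0.78 ± 0.21 on the log2 scale (SE; adjusted p = 0.946).

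The difference between the lines in the combination against TNF called 3 of 46 members, beside 2.28% of all genes. Atg7, lower with both agents in E0771, was at 4.51, 6.24 and 4.7 CPM with TNF and 7.32, 7.63 and 8.43 CPM with both agents in MC38, giving a difference, E0771 minus MC38, of -1.11 ± 0.26 (SE; adjusted p = 0.03). For Ulk2 the difference was 0.77 ± 0.20 (SE; adjusted p = 0.0441) and for Gabarapl1 -0.65 ± 0.17 (SE; adjusted p = 0.0394). Without the 4 libraries that stand apart none of the 3 was called, with adjusted p of 0.101, 0.193 and 0.1, beside 1.23% of all genes. None was called without E0771 TNF replicate 2 or 3, any E0771 combination replicate, MC38 TNF replicate 1 or MC38 combination replicate 2. The count was 1 without E0771 DMSO replicate 1 or 2, E0771 RG6146 replicate 3, MC38 RG6146 replicate 2 or MC38 combination replicate 1. With no filter on low counts 2 members were called, Ctsl and Ulk1, and none of these 3.

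Genes often used as markers of other cell types were read beside these results. Whether the lines themselves express them was not tested. The summed level of 7 fibroblast markers was 106 to 113 CPM in the E0771 DMSO libraries and 75.1 to 81.4 CPM with RG6146, and 498 to 556 CPM against 390 to 436 CPM in MC38. With TNF it was 95.4 to 136 CPM and with both agents 84.6 to 88.8 CPM in E0771, against 512 to 713 CPM and 309 to 398 CPM in MC38. The leukocyte sum in E0771 was 140 to 176 CPM in DMSO and 116 to 154 CPM with RG6146, mostly S100a8, with 5 of the 24 markers at 0 in every E0771 library. Of the fibroblast markers, 1 of 7 was at 0 throughout E0771 and 0 throughout MC38, and Col3a1 and Dcn were the most abundant. RG6146 lowered 2 of the 3 tested in E0771 and 2 of 4 in MC38, beside 6.86% and 4.91% of all genes. In the combination against TNF, 2 of 3 and 4 of 4 were lower, beside 9.46% and 7.6%. The sum of 5 endothelial markers was 10.6 to 15.8 CPM in E0771 and 0.541 to 4.87 CPM in MC38. Their part in the members' values was not tested.

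The DMSO libraries show how the lines differ before treatment. Of the 46 genes, 28 were called, 17 higher in E0771 and 11 higher in MC38, beside 58.7% of all genes (28.9% and 29.9%). The largest difference was in Mitf, at 28.3, 26.7 and 23.8 CPM in E0771 and 3.06, 3.46 and 4.83 CPM in MC38 (log2 difference, E0771 minus MC38, 2.78 ± 0.22, SE; adjusted p = 1.83e-10). The next in E0771 were the protease Atg4d, at 9.74 ± 0.619 and 2.65 ± 0.841 CPM (SD, n = 3; log2 difference 1.87), the pump subunit Atp6v0d1, at 37.5 ± 2.04 and 15 ± 2.85 CPM (SD, n = 3; 1.29), and Wipi1, at 84.7 ± 9.03 and 37.4 ± 5.95 CPM (SD, n = 3; 1.17). Atg7, Atg4a, Atp6v1h and Tfe3 followed, with log2 differences of 0.98, 0.95, 0.82 and 0.75.

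MC38 had the higher level of 3 of the 6 cargo receptors. Sqstm1 was at 347, 292 and 326 CPM in E0771 and 581, 671 and 670.4 CPM in MC38 (log2 difference -1.01 ± 0.11, SE; adjusted p = 4.51e-08). Optn, a receptor for bacteria and mitochondria, was at 5.3 ± 0.714 and 13.2 ± 1.83 CPM (SD, n = 3; log2 difference -1.32), and Nbr1, a receptor related to p62 in its domains, at 14.5 ± 3.48 and 32.5 ± 4.6 CPM (SD, n = 3; -1.18). Vmp1 had the largest difference in this direction, at 55.8 ± 4.42 and 161 ± 17.5 CPM (SD, n = 3; log2 difference -1.54; adjusted p = 1.37e-10), and the microRNA gene Mir21a overlaps it on the same strand. Atg10, Hexa, Becn1 and Map1lc3a were also lower in E0771, with log2 differences of -1.30, -0.82, -0.75 and -0.73. The Map1lc3a call was lost without E0771 DMSO replicate 3 (adjusted p = 0.0792). The other 12 called genes had smaller differences than those named in the same direction. Without the 4 libraries that stand apart 28 were again called, 26 of them the same, beside 62.9% of all genes. Lamp1, Gabarapl1, Gabarap and Ctsb were among the 18 genes not called.

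**Figure D4:**
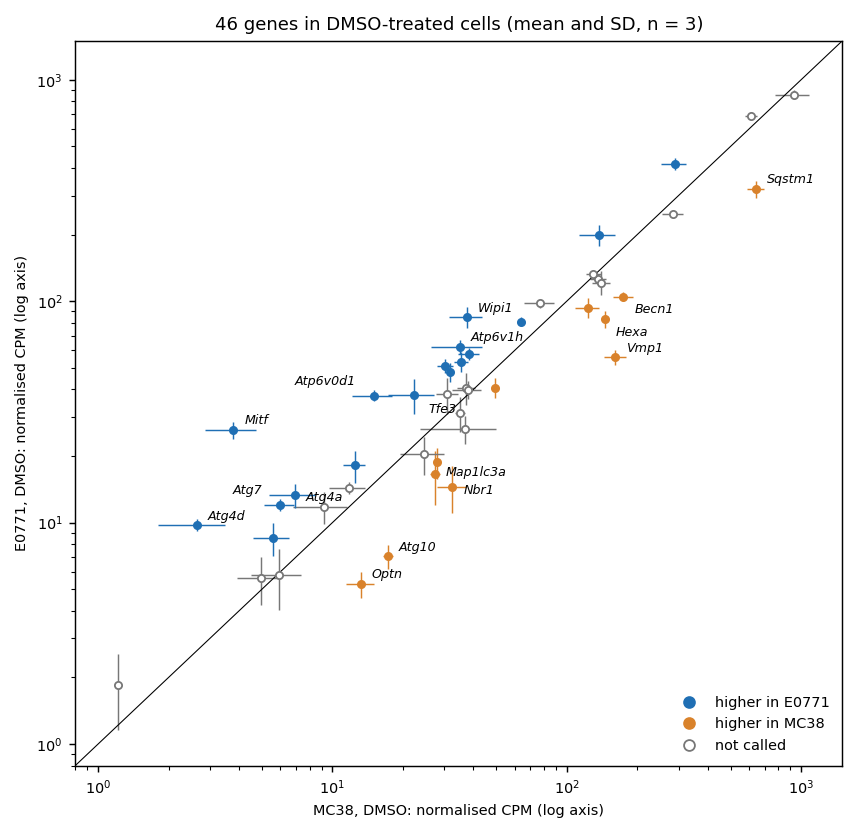
Mean normalised CPM of the 46 genes in DMSO-treated MC38 (x axis, log) and E0771 (y axis, log), with the SD of 3 libraries, scaled within each line. Points above the diagonal are higher in E0771; Mitf lies farthest above it and Vmp1 farthest below it among the called genes.

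Other genes of the same pathways were read from lists chosen with earlier results of these data known. Together these lists gave 9 calls with RG6146 in E0771 and 7 in MC38. The E0771 count was 3 without DMSO replicate 1 or RG6146 replicate 2, 4 without RG6146 replicate 3, and 20 in a fit of only the 6 libraries compared. In MC38 it was 4 without DMSO replicate 1, RG6146 replicate 1 or RG6146 replicate 2, 2 without RG6146 replicate 3, and 12 with DESeq2. With all libraries, the share called among all genes, to be read beside each list, was 10.8% in E0771 and 8.27% in MC38. It is not given here for the other fits.

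Of 27 further autophagy genes tested in each line, RG6146 raised 2 in E0771 and raised 1 and lowered 1 in MC38. In E0771 these were Trp53inp2, a nuclear protein that recruits LC3, at 1.68, 2.87 and 3.27 CPM in DMSO and 9, 10.8 and 8.14 CPM with RG6146 (log2 fold change 1.83; adjusted p = 0.000327), and C9orf72 (log2 fold change 0.52; adjusted p = 0.042). In MC38 they were Plekhm1, which tethers autophagosomes to lysosomes (log2 fold change 0.83; adjusted p = 0.0134), and the mitochondrial receptor Fundc1 (-0.80; adjusted p = 0.0317). The medians of this list were 0.02 and 0.13.

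Of the further lysosomal genes, 49 were tested in E0771 and 53 in MC38, with medians of 0.07 and -0.03. RG6146 raised 2 and lowered 1 of the 49 in E0771 and lowered 1 of the 53 in MC38. The gene lowered was Cln3, a lysosomal membrane protein mutated in a childhood storage disease, in each line. It was at 8.11, 7.53 and 9.65 CPM in E0771 DMSO and 2.21, 2.8 and 2.35 CPM with RG6146 (log2 fold change -1.77 ± 0.30, SE; adjusted p = 0.00141), and at 6.85, 6.81 and 6.8 CPM and 2.32, 2.05 and 2.73 CPM in MC38 (-1.52 ± 0.36, SE; adjusted p = 0.0186). No pair of groups overlapped. Among the risers in E0771 was the sialidase gene Neu1 (log2 fold change 0.47; adjusted p = 0.0239). Of the further proton pump subunits, 1 of 15 rose in E0771, Atp6v1e1 (log2 fold change 0.35, adjusted p = 0.0411), and 0 of 14 were called in MC38. There edgeR's test gave 1 of the 14 an unadjusted p under 0.05, beside 2949 of all 13272 genes tested.

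Among genes of mTORC1 and AMPK signalling, which restrain and promote ULK1, 30 were tested in E0771 and 34 in MC38, with medians of 0.08 and -0.004. Sesn2, a stress-induced inhibitor of mTORC1, rose in both lines, from 25.7, 31.1 and 25.7 CPM to 44.5, 44.3 and 45.9 CPM in E0771 (log2 fold change 0.71 ± 0.11, SE; adjusted p = 0.0009) and from 29.5, 27.9 and 36.8 CPM to 68, 52.2 and 58.8 CPM in MC38 (0.93 ± 0.18, SE; adjusted p = 0.00551). Every treated library lay above every control. Sesn1 (log2 fold change 0.99) and the mTORC1 inhibitor Ddit4 (0.44) rose in E0771, Sesn3 (4-fold; adjusted p = 0.00607) and the mTOR subunit Mlst8 (0.82) rose in MC38, and Rptor, the mTORC1 scaffold, fell in MC38 (-0.51; adjusted p = 0.022).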

How the data were processed

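QuantSeq 3′ RNA libraries of 2 mouse lines under 4 treatments were analysed from the deposited table of raw counts per gene. Per the submitters' processing notes, the authors used bcl2fastq 2.17.1.14, cutadapt 1.14, HISAT2 2.1.0 on mm10, featureCounts of Subread 1.5.2, and limma. What remains not given in the sources used here is the annotation release, the strand setting and the handling of multimapping reads. Of 43629 Ensembl identifiers, 42462 matched a symbol in a reference list of gene names and 1167 did not. Gene positions and exon overlaps came from GENCODE vM21, which holds 42548 of the identifiers. No column was left unused.

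The members, the further lists and the rules were chosen with earlier results of these data known. Genes were filtered with filterByExpr by group, leaving 12541 in E0771, 13272 in MC38 and 14058 in all 24 libraries, and scaled with TMM. Within each line, 12 libraries were fitted with edgeR's quasi-likelihood F test (prior count 0.125), tested on simulated data first; DMSO levels and differences between lines came from a joint fit. P-values were Benjamini-Hochberg adjusted over all genes tested, and SE is the log2 fold change divided by the square root of F. CPM are TMM-scaled within a line. Named are all called members (up to 12 a direction within a line, 8 between lines), 9 members whatever their result, and up to 3 called genes a direction of each further list (autophagy, lysosome, proton pump, mTORC1 and AMPK), except an item that is not reported here. Other genes are named as exceptions chosen after their values were seen. Markers of leukocytes, fibroblasts, endothelium and epithelium were summed. Alternatives were DESeq2, its size factors, library totals, no filter, a replicate block, the 6 libraries compared and leaving out each library; leaving out the 4 libraries that stand apart was added after seeing the data. The libraries were not treated as paired by replicate number. Correlations of same-numbered deviations ran from -0.255 to 0.219 in E0771 and from -0.42 to 0.313 in MC38. Those of unlike numbers ran from -0.414 to 0.393 and from -0.456 to 0.512. With 3 libraries a group these cannot show whether the numbers pair the samples. Versions were R 4.3.3, edgeR 4.0.16, DESeq2 1.42.0, limma 3.58.1, Python 3.11.15, numpy 2.4.6, pandas 2.3.3 and matplotlib 3.10.9. An exon of another gene overlaps 16 members on the opposite strand and 4 on the same strand. On the opposite strand these are Sqstm1, Optn, Bnip3, Map1lc3b, Gabarapl1, Becn1, Atg14, Uvrag, Smcr8, Atg9a, Atg4d, Lamp1, Ctsb, Ctsl, Hexa and Atp6v1h. Those on the same strand are Vmp1, Atg9a, Ctsd and Ctsl. The limit on telling reads apart that is given for Gabarapl1 applies to each of them.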

Additional observations from a re-analysis of the deposited data

Results flagged for a closer look

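Smcr8 was marked because the effect of RG6146 on it differed between the lines by the test of the difference, at -1.28 ± 0.25 on the log2 scale (E0771 minus MC38, SE; adjusted p = 0.0181, edgeR's quasi-likelihood test). Its level fell in E0771 and its log2 fold change in MC38 was 0.46, not called there. In the combination against TNF, 3 members differed between the lines: Atg7 by -1.11 ± 0.26 (SE; adjusted p = 0.03), Ulk2 by 0.77 ± 0.20 (SE; adjusted p = 0.0441) and Gabarapl1 by -0.65 ± 0.17 (SE; adjusted p = 0.0394). The calls of Atg7, Ulk2 and Gabarapl1 were lost without the 4 libraries that stand apart, while Smcr8 kept its call there (difference -1.29, adjusted p = 0.00831).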

How the results depend on the processing

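Signs were followed for the named called members and, with RG6146, for the 9 members named whatever their result. No called value among them changed sign under any alternative run. Uncalled values of 3 followed genes did: Ctsd with RG6146 in E0771 (0.02, lowest -0.04), Bnip3 there (0.10, lowest -0.04) and Sqstm1 with RG6146 in MC38 (0.02, lowest -0.06). Other uncalled members changed sign too. With library totals alone, the members above 0 with RG6146 went from 30 to 26 in E0771 and from 36 to 29 in MC38. With all libraries, RG6146 against DMSO called 7 members in E0771, against 12 in a fit of only the 6 libraries compared and 11 without the 4 libraries that stand apart (an alternative chosen after seeing the data). For TNF against DMSO in E0771 the count of 1 became 2 with library totals alone and 0 with the replicate block or the 6 libraries. For the combination against TNF in E0771 the 9 became 4 with the 6 libraries and 15 without the 4. In MC38, RG6146 against DMSO called 2, against 4 with DESeq2's size factors in edgeR, 5 with DESeq2 and 6 without the 4 libraries, and the combination against TNF called 2, against 5 with no filter, 4 with DESeq2 and 1 with the 6 libraries. The difference between lines with TNF went from 0 to 1 with no filter and with DESeq2, and that in the combination from 3 to 0 without the 4 libraries. Without the 4 libraries the share of all genes called moved too. With RG6146 it went from 10.8% to 18.3% in E0771 and from 8.27% to 9.31% in MC38. In the combination against TNF it went from 16.6% to 22.7% in E0771, and in its difference between lines from 2.28% to 1.23%. For the other alternatives the share is not given here, so their counts cannot show a change particular to these genes. The cause of these changes was not tested.

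Leaving out 1 library at a time gave 5 to 11, 0 to 5 and 4 to 15 calls in E0771 (RG6146, TNF, combination against TNF), 1 to 5, 0 and 1 to 2 in MC38, 25 to 29 for DMSO between lines, and 0 to 1, 0 to 2 and 0 to 3 for the differences between lines, with 0 throughout for both interactions. The 11 and the 15 came without TNF replicate 2, where 18.3% and 22.7% of all genes were called. The replicate block, which groups libraries by replicate number, gave 6, 0 and 7 calls in E0771, 2, 0 and 2 in MC38 and 24 for DMSO. The share of all genes called is not given here for the replicate block or the other fits without 1 library. Of the values of the followed members under all alternatives, 1134 kept their side of the threshold, 113 lost it, 11 gained it and 7, all of them not called, changed sign. Ulk1, Atg12, Gabarapl1, Mitf and Smcr8 with RG6146 in E0771 and Atg12 with RG6146 in MC38 kept their calls in all 19 alternatives each. For E0771, 2 of the 19 are the same fit, since only TNF replicate 2 of the 4 libraries that stand apart is from E0771. The totals above hold both. Calcoco1 with RG6146 in MC38 rested on 7 to 24 counts a library and Tfeb in E0771 on 15 to 50.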

Other observations

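With TNF, the further autophagy gene C9orf72 and the transcription factor gene Foxo3, both chosen after their values were seen, rose in both lines. C9orf72, the partner of Smcr8, was at 13.6, 14.2 and 11.7 CPM in E0771 DMSO and 39.8, 38.5 and 31.1 CPM with TNF (log2 fold change 1.47 ± 0.14, SE; adjusted p = 2.1e-05, edgeR's quasi-likelihood test). In MC38 it was at 33.5, 33.4 and 29 CPM and 123, 85.8 and 95.7 CPM (log2 fold change 1.67 ± 0.19, SE; adjusted p = 0.000189). Foxo3 had log2 fold changes of 0.79 ± 0.11 in E0771 (SE; adjusted p = 0.000695) and 0.60 ± 0.13 in MC38 (SE; adjusted p = 0.0394). Smcr8 itself was not called with TNF in either line, at -0.34 and 0.09.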
